A study of Homo sapiens with 2 samples.

Results

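The MCM helicase and replication licensing genes were taken as 10 genes by name: MCM2, MCM3, MCM4, MCM5, MCM6 and MCM7, which encode the subunits of the replicative helicase ring, and CDC6, CDT1, GMNN and CDC45, which encode proteins that load, restrain or complete it. All listed transcripts of these genes were summed per gene in each library, which gave 91 of the 206696 transcripts and 10 of the 59026 matched genes. The rule uses no measured value, although the genes were proposed with earlier results of these data known.

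The study measured total RNA depleted of rRNA from HEK293 cells, an established human embryonic kidney line. The cells were of the Flp-In T-Rex derivative, which carries 1 integration site for a tetracycline-controlled transgene, and the labels name no treatment, time or altered gene. There was 1 group of 2 libraries, replicate 1 with 25158962 estimated counts and replicate 2 with 27143860, and nothing in the labels said whether they came from separate cultures, so the spread given here may be technical. With 1 group no comparison between conditions was possible, and a two-sided exact sign-flip test over 2 libraries cannot go below p = 0.5, so all comparisons below are descriptions.

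The labelled cell type was checked against 8 genes often found in HEK293 cells and 6 genes of other cell types. Of the former, 5 of 8 reached a level of 1 in both libraries, on the length-scaled unit explained below. They ranged from PAX8 at 0.00994 ± 0.000797 to the intermediate filament gene VIM at 307 ± 6.54 (SD, n = 2). NEFM at 0.281 ± 0.0652 and PAX2 at 0.694 ± 0.0218 also stayed below 1. In the background 11985 of 19885 protein-coding genes reached that level, so the count of 5 is near the background and does not identify the cell type. Of the latter, 5 of 6 were listed at 0 in both libraries, including the leukocyte gene PTPRC and the hepatocyte gene ALB. The erythroid globin gene HBB stood at 20.6 ± 0.498, and its part in any value given here was not tested.

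Replication origins are licensed when the origin recognition complex, CDC6 and CDT1 place double rings of MCM2 to MCM7 on DNA before S phase. Geminin, the product of GMNN, binds CDT1 and blocks renewed loading once S phase has begun. CDC45 and the GINS complex then join the ring to form the active helicase, and many of these genes are known targets of E2F transcription factors in proliferating cells.

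RefSeq promoters of 250 bases before to 50 bases after a start (GRCh38.p14) were given for 8 of the 10 genes, all but MCM4 and MCM5. They were searched on both strands for the E2F-type octamers TTTGGCGC, TTTCCCGC, TTTGCCGC and TTTCGCGC, where matches that overlapped each other were counted once. A match stood in the promoters of 7 of 8 genes, against 3.99% of the 27305 genes with a promoter, and in 7 of the 13 promoters listed for them. None of the CDC45 promoters held one of these 4 spellings. The windows of 30 bases around the matches are shown because they are a feature that the choice of genes did not use, and the capitals mark the match as it reads on the strand of the gene.
MCM6, first of a pair, chr2:135876577-135876606, minus strand: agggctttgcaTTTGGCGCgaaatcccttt
MCM6, second of a pair, chr2:135876515-135876544, minus strand: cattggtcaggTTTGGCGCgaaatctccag
MCM2, chr3:127598402-127598431, plus strand: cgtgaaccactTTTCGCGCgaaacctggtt
GMNN, chr6:24775322-24775351, plus strand: gctgggtcggtTTTGGCGCgctctcacttc
MCM3, first of a pair, chr6:52284898-52284927, minus strand: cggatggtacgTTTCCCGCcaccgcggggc
MCM3, second of a pair, chr6:52284728-52284757, minus strand: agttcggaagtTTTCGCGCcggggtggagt
MCM7, first of a pair, chr7:100101566-100101595, minus strand: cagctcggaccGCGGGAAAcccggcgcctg
MCM7, second of a pair, chr7:100101388-100101417, minus strand: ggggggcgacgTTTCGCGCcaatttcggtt
CDT1, chr16:88803743-88803772, plus strand: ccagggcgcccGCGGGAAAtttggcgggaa
CDC6, chr17:40287875-40287904, plus strand: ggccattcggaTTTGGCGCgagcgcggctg

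The matches began 4 to 187 bases before the start in MCM3, MCM6, MCM7, CDT1 and GMNN, and 3 and 8 bases after it in MCM2 and CDC6. In the first pair member of MCM7 and in CDT1 the letters were those of TTTCCCGC on the opposite strand. The pentamer CCAAT, the core letters bound by the factor NF-Y, was found on either strand in 6 of 8 genes against 39.7% of all genes with a promoter, and in MCM7 its match beginning 2 bases before the start shared 1 base with the second octamer. By the same search, an octamer stood in 1 of 6 genes of the origin recognition complex and 4 of 6 factors that activate the ring. It stood in 3 of 6 E2F genes and 5 of 10 fork genes with a promoter given. The other lists had 2 of 3 (other MCM family), 2 of 5 (CDT1 turnover), 1 of 5 (kinases and cyclins) and 1 of 2 (geminin family). For CCAAT the 8 lists, in this order, had 4 of 6, 4 of 6, 3 of 6, 6 of 10, 2 of 3, 2 of 5, 1 of 5 and 0 of 2. A match is a run of letters and was not a measurement of binding.

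RNA of all 10 genes was present in both libraries, and all stood well above the median gene on the unit given next. Levels are given as estimated counts divided by transcript length and scaled to 1000000 per library, termed length-scaled levels, since only values per length can be compared between genes. The 10 genes lay above 80.5% (CDC6) to 97.7% (MCM4) of the 11985 protein-coding genes with a level of at least 1 in both libraries, whose median was 11.9. Together they held 0.233% of the estimated counts in replicate 1 and 0.244% in replicate 2. The level of CDC6 depended on the length used. With its gene total divided by the length of the Ensembl canonical transcript alone it was 13.6 ± 0.917, against 31.8 ± 0.511 on the length-scaled unit. The median gene on the canonical-length scale is not given here. In bulk RNA, a lower level in each cell and fewer cells with the RNA, such as cells in another phase of the cycle, cannot be told apart.

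Among the subunits, MCM4, MCM7 and MCM3 formed the upper tier. MCM4 (chromosome 8, plus strand, 47960185 to 47978160, GRCh38) had a length-scaled level of 190.9 in replicate 1 and of 170.5 in replicate 2, with a mean of 181 ± 14.4 (SD, n = 2). MCM7 (chromosome 7, minus strand, 100092233 to 100101940) had 163.4 and 171.2, or 167 ± 5.51. MCM3 (chromosome 6, minus strand, 52264014 to 52284881) had 172.9 and 160.0, or 166 ± 9.15. The order of these 3 was not resolved, because MCM7 was below MCM3 and MCM4 in replicate 1 and above both in replicate 2, and MCM3 and MCM4 lay 14.2 apart, less than their summed SDs of 23.6.

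MCM2, MCM5 and MCM6 followed at separate levels on the length-scaled unit. MCM2 (chromosome 3, plus strand, 127598410 to 127622436), whose protein carries a histone-binding tail, had 118.5 and 138.5, or 128 ± 14.1. MCM5 (chromosome 22, plus strand, 35400134 to 35425431), the partner of MCM2 at the gate through which DNA enters the ring, had 74.0 and 85.9, or 80.0 ± 8.35. MCM6 (chromosome 2, minus strand, 135839626 to 135876443), which contacts CDT1 during loading, had 49.3 and 39.3, or 44.3 ± 7.07. The lowest of the upper-tier values, 160.0 for MCM3, exceeded the highest MCM2 value, and MCM2, MCM5 and MCM6 did not overlap with each other.

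The mean over the 6 subunits was 128.2 and 127.6, or 128 ± 0.444 (SD, n = 2), so subunits that were higher in replicate 2 were offset by subunits that were lower. From the lowest to the highest subunit the span of the means was 4.08-fold. It was 3.88-fold in replicate 1, from MCM6 to MCM4, and 4.36-fold in replicate 2, from MCM6 to MCM7. A pair of genes was called apart when its order did not change between libraries. Its means also had to lie further from each other than the SDs of both genes added up. This held for 12 of 15 subunit pairs. The share over pairs of other genes was not taken, so the count cannot be set against a background. Relative to the subunit mean, MCM4 stood at 1.41 ± 0.108, MCM7 at 1.31 ± 0.0477, MCM3 at 1.302 ± 0.0670, MCM2 at 1.01 ± 0.114, MCM5 at 0.625 ± 0.0675 and MCM6 at 0.346 ± 0.0541. The RNAs were thus not at equal levels, although the ring holds the proteins in equal number.

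**Figure D1:**
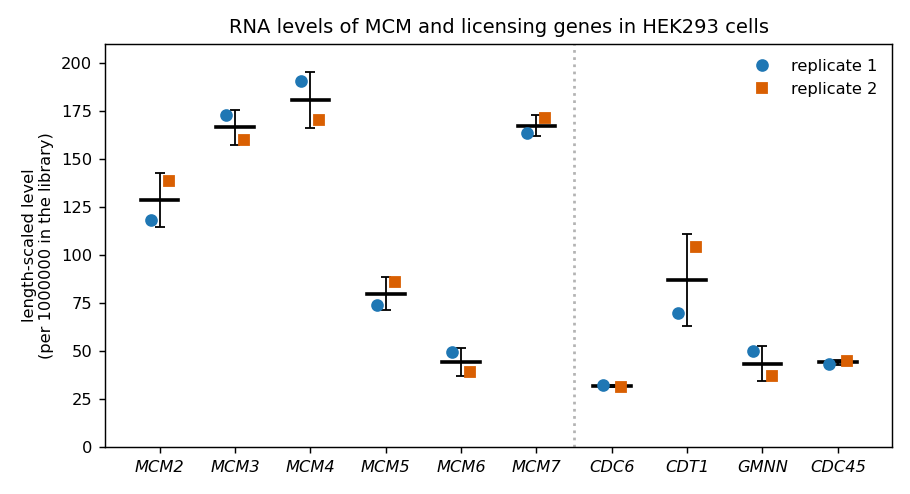
Length-scaled level (vertical axis, per 1000000 in the library) of each gene in replicate 1 (circles) and replicate 2 (squares), with the mean (bar) and SD (whiskers) of the 2 libraries. MCM4, MCM7 and MCM3 lie between 160.0 and 190.9 in both libraries, while MCM6, CDC6, GMNN and CDC45 all stay below 50 (highest 49.7).

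The place of MCM7 in this order depended on which transcripts were counted, as the plot of subunit ratios on 5 scales shows. On the length-scaled unit its ratio to the subunit mean was 1.27 in replicate 1 and 1.34 in replicate 2. With the gene total divided by the length of the Ensembl canonical transcript alone, MCM7 was the highest subunit, at 1.81 ± 0.0498. With protein-coding transcripts only, MCM7 became the lowest, at 0.307 ± 0.0632, MCM3 the highest, at 2.03 ± 0.0987, and the span between them was 6.58-fold. On other scales some neighbours were no longer apart, namely MCM2 and MCM5 with coding transcripts only, MCM5 and MCM6 without division by length, and MCM2 and MCM4 per canonical length. MCM7 and MCM6 were not apart with coding transcripts only, since MCM7 was the lower of the pair in replicate 1 and MCM6 in replicate 2. The ratio of MCM6, as the mean of the 2 libraries, was between 0.320 and 0.375 on all 5 scales, with single values from 0.287 to 0.414, and had the lowest mean on the 4 that counted all transcripts.

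**Figure D2:**
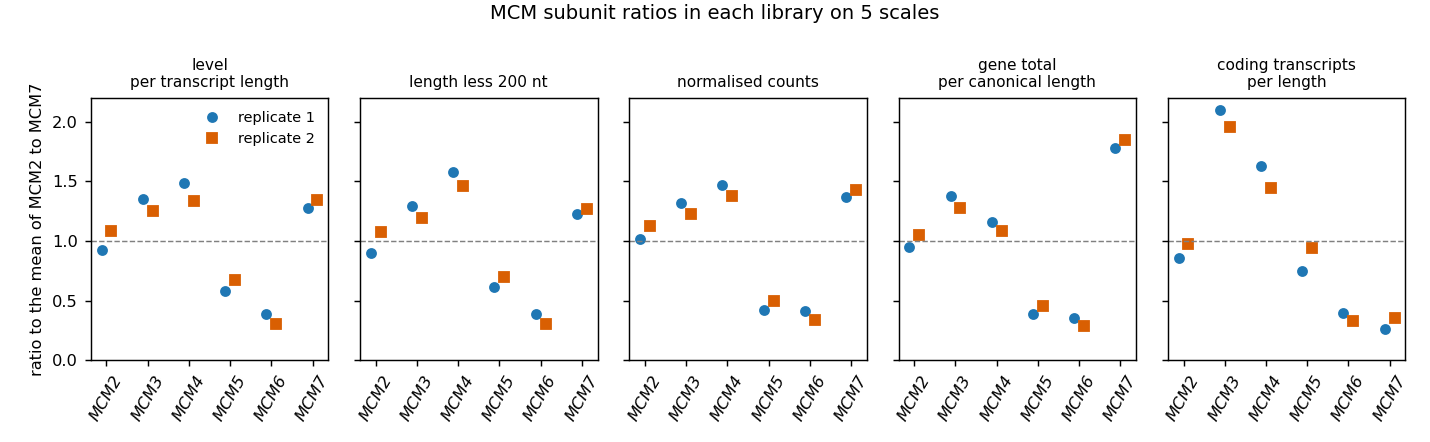
Ratio of each subunit to the mean of MCM2 to MCM7 in the same library (vertical axis, no unit; dashed line at 1) on 5 scales, for replicate 1 (circles) and replicate 2 (squares). MCM7 moves from 1.81 on the canonical-length scale to 0.307 with coding transcripts only, by the mean of the 2 libraries, while the mean for MCM6 stays between 0.320 and 0.375 and its single values between 0.287 and 0.414.

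Of the loading factors, CDT1 was the more abundant and the more variable. CDT1 (chromosome 16, plus strand, 88803789 to 88809258), which brings the MCM ring to the origin, had a length-scaled level of 70.0 in replicate 1 and of 103.9 in replicate 2, with a mean of 87.0 ± 24.0. CDC6 (chromosome 17, plus strand, 40287879 to 40304657), the ATPase that acts with the origin recognition complex, had 32.2 and 31.4, or 31.8 ± 0.511. On this unit CDC6 was the lowest of the 10 genes in both libraries, at 0.251 and 0.246 of the subunit mean, or 0.249 ± 0.00313. This rank was lost without division by length, where GMNN was lowest in both libraries, and with coding transcripts only, where MCM7 and CDC45 were lower than CDC6 in both. The level of CDT1 could not be separated from that of MCM5, which was higher than CDT1 in replicate 1 and lower in replicate 2.

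GMNN (chromosome 6, plus strand, 24774931 to 24786099), the inhibitor of CDT1, had a length-scaled level of 49.7 in replicate 1 and 37.1 in replicate 2, or 43.4 ± 8.93. GMNN was thus lower in replicate 2, where CDT1 was higher, and the ratio of CDT1 to GMNN was 1.41 in replicate 1 and 2.80 in replicate 2, or 2.10 ± 0.986. CDT1 exceeded GMNN in both libraries on all 5 scales, with mean ratios from 1.504 (canonical length) to 3.17 (no division by length). The lower end in a single library was 1.05, on the canonical-length scale in replicate 1, where the 2 genes were almost level.

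CDC45 (chromosome 22, plus strand, 19479457 to 19520612), the cofactor that turns the loaded ring into a moving helicase, had 43.2 and 44.8, or 44.01 ± 1.18. This was 0.344 ± 0.0104 of the subunit mean. MCM6, CDC45 and GMNN changed order between the libraries and none of their 3 pairs was apart. Over all 10 genes, 38 of 45 pairs were apart, again with no background share taken. CDC45 exceeded CDC6 in both libraries on 4 scales, but with coding transcripts only CDC6 was slightly higher, at 1.02 ± 0.00608 of CDC45.

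Between the libraries no gene differed by more than 2-fold in normalised counts, that is, the estimated counts divided by 1 size factor per library as deposited. In the background 5.76% of the 19110 genes averaging 10 or more normalised counts did so, so a count of 0 among 10 genes is near the background. The largest difference was that of CDT1, whose normalised count was 3292 in replicate 1 and 4649 in replicate 2, 1.41-fold apart, followed by GMNN with 1488 and 1125, or 1.32-fold. MCM7 differed least, with 12312 and 12520, or 1.02-fold. In all, 4 of 10 genes were higher in replicate 2. By length-scaled level, 3 of the 6 subunits and 2 of the other 4 genes were higher there. In the background this held for 5491 of the 11985 protein-coding genes with a level of at least 1 in both libraries.

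Transcript models were next compared within each gene, as shares of its normalised count, without division by length unless stated. The intervals given with shares are exact (Clopper-Pearson) 95% intervals for 1 library, and cover counting error only, not the way RSEM divides reads between overlapping models. For 8 of 10 genes both libraries had the same leading transcript, against 78.5% of 16735 genes with several transcripts and 88.4% of the 3540 whose total lay in the range of the 10 genes, so the count is near the background. The exceptions were CDC45 and GMNN. The median share of the leading transcript was 76.5%, beside 64.9% over all protein-coding genes with several transcripts and 68.9% over those in the same range of totals, and the median share of protein-coding models was 91.5%, beside 91.3% and 93.1%.

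**Figure D3:**
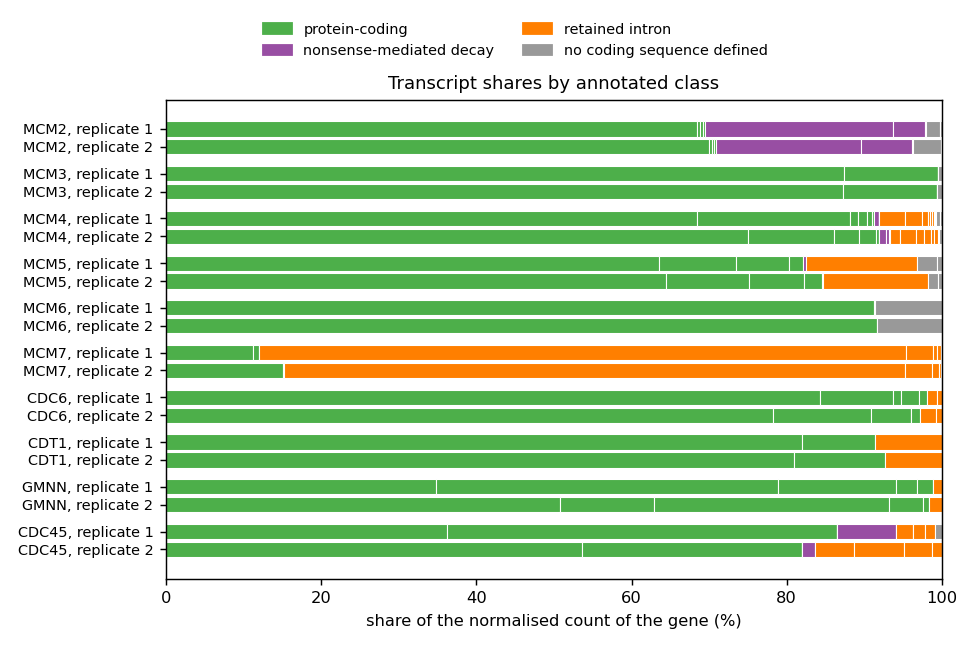
Share of the normalised count of each gene (horizontal axis, percent) held by each annotated transcript, coloured by class, in replicate 1 and replicate 2. Protein-coding transcripts hold 12.02% and 15.2% of MCM7, but at least 69.4% of each other gene.

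MCM7 was the only one of the 10 genes led by a transcript that is not annotated as protein-coding. MCM7-209, a retained-intron model, had a normalised count of 10264 in replicate 1, which was 83.4% (95% interval 82.7 to 84.0) of the gene, and of 10025 in replicate 2, which was 80.1% (79.4 to 80.7). The canonical coding transcript MCM7-201 had 1382 and 1880, or 11.2% (10.7 to 11.8) and 15.0% (14.4 to 15.6). In both libraries the retained-intron model was thus far above the coding one. All protein-coding MCM7 models together held 13.6% ± 2.27 (SD, n = 2).

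Leading transcripts of another class than protein-coding were found for 12.2% of 14209 protein-coding genes, so 1 of 10 is close to the background. A retained-intron leader was found for 1.57% of the 3512 genes whose total lay in the range of the 10 genes. A lower protein-coding share than that of MCM7 was found in 3.95% of all 14209 genes and in 1.17% of the 3512 in that range. Divided by length, MCM7-209 still held 71.6% ± 2.62 and MCM7-201 14.4% ± 2.82.

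The models MCM7-209 and MCM7-201 differ at a pair of places. MCM7-209 keeps the intron of 75 bases between exons 4 and 5 of MCM7-201, at chr7:100099204-100099278 on the minus strand, and its first exon reaches 543 bases further upstream. The intron is a multiple of 3 long, and in the reading frame of MCM7-201 it holds 2 stop codons, the first at codon number 2. It is shown in capitals below with 15 exon bases on each side, beside the junction of MCM7-201 with the first bases of exon 5 in capitals, because these letters are 1 of the differences by which reads could be assigned to the retained-intron or the coding model.
MCM7-209 retained intron: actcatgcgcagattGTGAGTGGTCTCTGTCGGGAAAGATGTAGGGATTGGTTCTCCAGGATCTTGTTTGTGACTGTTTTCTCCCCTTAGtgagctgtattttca
MCM7-201 junction: actcatgcgcagattTGAGCTGTATTTTCA

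Most of either transcript is common to both. Of the words of 50 bases in MCM7-201, 49 of 2418, or 2.03%, are absent from MCM7-209, while 667 of 3036, or 22.0%, of those in MCM7-209 are absent from MCM7-201, so few stretches are particular to MCM7-201. Both identifiers were listed in another version than in GENCODE v44, and the models the reads were assigned to may differ from those shown. The upstream end of MCM7 overlaps 392 bases of AP4M1, an adaptor complex gene on the opposite strand that held 302 and 347 normalised counts. The strand setting was not given, so reads in that overlap cannot be told apart, and their part in the MCM7 shares was not tested.

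**Figure D4:**
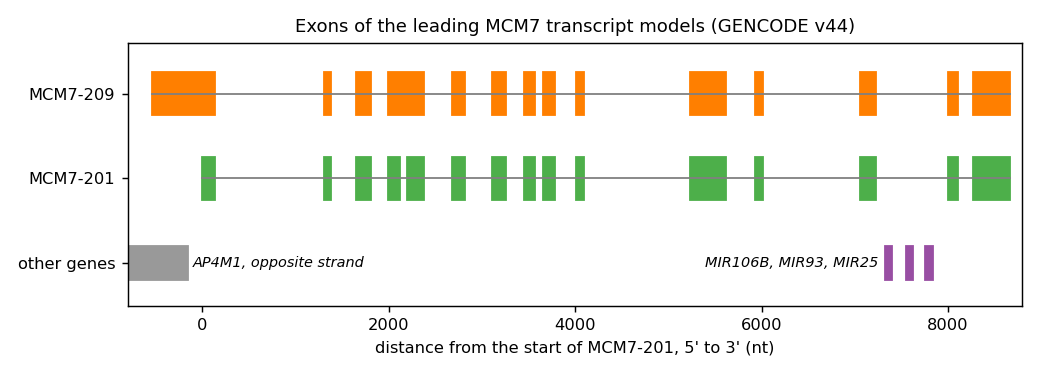
Exons (boxes) of MCM7-209 and MCM7-201 by distance in nt from the start of MCM7-201 (horizontal axis, 5′ to 3′), with the neighbouring genes in the lowest row. MCM7-209 has 14 exons against 15, since exons 4 and 5 are joined across the 75-base intron, and begins 543 bases further upstream.

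An intron of MCM7 also holds the genes of 3 miRNAs, of which miR-106b and miR-93 are known to act on cell cycle regulators. MIR106B was listed with 0 and 1 estimated counts, MIR93 with 0 and 0, and MIR25 with 2 and 6, and only MIR25 in replicate 2 exceeded the 3 counts that a count of 0 allows. The libraries were of total RNA rather than small RNA, so these values carry no information on the mature miRNAs. Their RefSeq mature sequences (GRCh38.p14, minus strand of chromosome 7) are shown with the seed, bases 2 to 8, in capitals, since miR-106b-5p and miR-93-5p share theirs and miR-25-3p does not.
miR-106b-5p, chr7:100094043-100094063: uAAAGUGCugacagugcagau
miR-93-5p, chr7:100093815-100093837: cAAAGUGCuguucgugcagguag
miR-25-3p, chr7:100093571-100093592: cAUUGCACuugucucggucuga

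CDC45 exchanged its leading pair of transcripts between the libraries. CDC45-201 had a normalised count of 854 in replicate 1, or 50.2% (47.7 to 52.6) of the gene, and of 471 in replicate 2, or 28.4% (26.4 to 30.6). CDC45-202 held 618 and 887 counts, or 36.3% (33.9 to 38.7) and 53.6% (51.2 to 55.9). The counting intervals of the libraries did not overlap for either transcript, while the gene total differed by only 1.03-fold. Such a gap was not particular to CDC45, since it also held for the leading transcripts of MCM4, MCM7 and CDC6. It did not hold for those of MCM2, MCM3, MCM5, MCM6 and CDT1. Its share over all transcripts was not taken, so it cannot be set against a background.

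Both CDC45 transcripts are annotated as coding, and CDC45-202 lacks an exon of 138 bases, at chr22:19482690-19482827 on the plus strand, within the coding sequence. The length is a multiple of 3, so the reading frame goes on behind it. The exon is shown in capitals with 15 bases on each side, above the junction that replaces it, because these letters separate the pair that exchanged the lead. Only 46 of 1644 words of 50 bases in CDC45-202, or 2.80%, are absent from CDC45-201, and 12.7% the other way.
CDC45-201 exon: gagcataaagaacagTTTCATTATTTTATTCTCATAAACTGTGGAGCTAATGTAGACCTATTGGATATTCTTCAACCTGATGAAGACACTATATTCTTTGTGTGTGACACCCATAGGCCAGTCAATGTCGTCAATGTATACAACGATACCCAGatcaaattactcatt
CDC45-202 junction: gagcataaagaacagATCAAATTACTCATT

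Retained-intron models held 5.00% of CDC45 in replicate 1 and 16.3% in replicate 2, and models marked for nonsense-mediated decay 7.64% and 1.71%. The protein-coding share of CDC45 was 84.2% ± 3.14. CDC45 was the gene in which the non-coding classes varied most between the libraries. Its start lies 255 bases from that of UFD1, a gene of ubiquitin-dependent protein degradation on the opposite strand, with 866 ± 21.9 normalised counts. An unnamed lncRNA on the opposite strand overlaps CDC45 by 41 bases and was not analysed here.

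GMNN differed more strongly between the libraries. GMNN-207 had a normalised count of 655 in replicate 1, or 44.02% (41.4 to 46.7) of the gene, and of 136 in replicate 2, or 12.1% (10.3 to 14.1). GMNN-201, the canonical transcript, held 518 and 571, or 34.8% (32.4 to 37.4) and 50.8% (47.9 to 53.6), and GMNN-202 held 228 and 340, or 15.3% (13.4 to 17.3) and 30.2% (27.7 to 32.9). The lead thus passed from GMNN-207 to GMNN-201, and the counts of GMNN-207 were 4.81-fold lower in replicate 2. All 3 transcripts have the same coding sequence of 627 bases and differ outside it, so 98.6% ± 0.375 of the gene remained in protein-coding models.

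**Figure D5:**
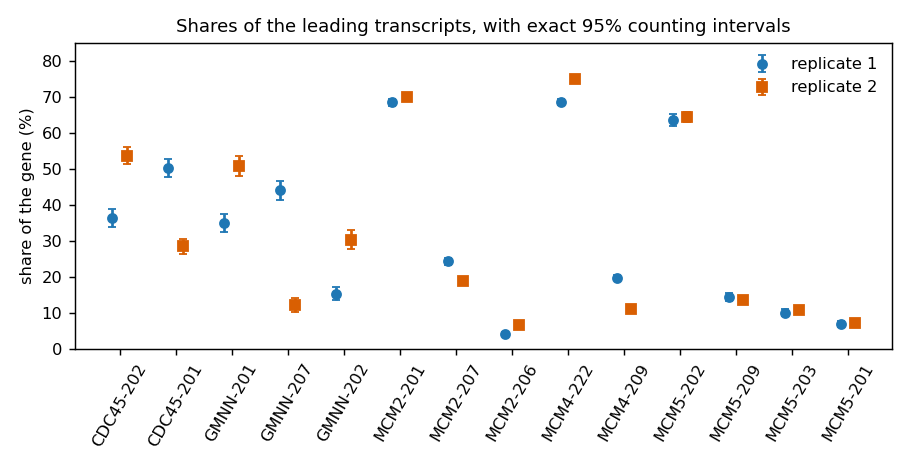
Share of the gene (vertical axis, percent of normalised counts) of transcripts of CDC45, GMNN, MCM2, MCM4 and MCM5 with a mean share of at least 5%, in replicate 1 (circles) and replicate 2 (squares). Whiskers are exact 95% counting intervals. The intervals of the libraries lie apart for the plotted transcripts of CDC45, GMNN and MCM4. They also lie apart for the plotted MCM2 models marked for nonsense-mediated decay. They overlap for the leading MCM2 transcript and for the plotted MCM5 transcripts, and the shares of MCM5-202 nearly coincide, at 63.5% and 64.4%.

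Of the 68 transcripts of these genes that averaged 10 or more normalised counts, 20 differed by more than 2-fold between the libraries, against 30.4% of all 65698 such transcripts, so the share is near the background. Of the 20, 5 were listed at 0 in 1 library. Among the 20, only GMNN-207 held at least 5% of its gene. GMNN and CDC45, which exchanged their leaders, had totals of 1125 to 1702 normalised counts, at the lower end of the 10 genes. CDC6 had a similar total, 1601 and 1440, and kept CDC6-207 in the lead.

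MCM2 was led by its canonical transcript MCM2-201, with 68.5% in replicate 1 and 69.9% in replicate 2. MCM2-207, a model marked for nonsense-mediated decay, held 2215 and 1848 normalised counts, or 24.3% (23.4 to 25.2) and 18.7% (18.0 to 19.4). MCM2-206 held 4.17% and 6.62%. In all, decay models held 28.4% and 25.3% of MCM2, and at most 7.64% of any other of the 10 genes in either library. Divided by length, decay models held 30.9% and 25.6% of MCM2, and 18.8% and 4.03% of CDC45.

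MCM2-207 skips an exon of 113 bases, at chr3:127617969-127618081 on the plus strand, whose length leaves a remainder of 2 when divided by 3. The models differ elsewhere too, with 14 exons in MCM2-207 against 16 in MCM2-201. Of the words of 50 bases in MCM2-201, 1036 of 3385 are absent from MCM2-207, and 112 of 2461 the other way. The coding sequence of MCM2-207 is annotated with 271 bases against 2712 in MCM2-201. The junction left by the skipped exon lies outside those 271 bases, and the origin of the shorter coding sequence was not tested. The exon is shown in capitals with its flanks, above the junction of MCM2-207, as the letters by which the coding and the decay model of MCM2 differ at this place.
MCM2-201 exon: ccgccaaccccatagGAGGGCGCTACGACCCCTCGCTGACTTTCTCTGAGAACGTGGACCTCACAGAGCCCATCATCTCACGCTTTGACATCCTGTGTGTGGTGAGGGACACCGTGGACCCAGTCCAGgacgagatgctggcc
MCM2-207 junction: ccgccaaccccatagGACGAGATGCTGGCC

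MCM5 was led by MCM5-202, which is not its canonical transcript. MCM5-202 had a normalised count of 2391 in replicate 1, or 63.5%, and of 2792 in replicate 2, or 64.4%. The canonical MCM5-201 held 259 and 310, or 6.88% and 7.15%, below the retained-intron model MCM5-209, with 14.3% and 13.5%, and MCM5-203, with 9.95% and 10.7%. By counts, the order of the 4 transcripts was the same in both libraries. Divided by length, MCM5-202 still led, with 48.5% and 49.8%. On that scale MCM5-203, with 24.7% and 26.8%, lay above MCM5-209, with 5.71% and 5.44%.

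By normalised counts, the other subunits were dominated by 1 coding transcript. MCM3-201 held 87.4% and 87.2% of MCM3, with MCM3-203 at 12.1% and 12.2%. MCM6-201 held 91.2% and 91.6% of MCM6, with MCM6-203, which has no coding sequence defined, at 8.56% and 8.33%. These shares nearly coincided between the libraries, with an SD of 0.158 percentage points for MCM3-201 and 0.283 for MCM6-201. Divided by length, the same transcripts led with smaller shares. MCM3-201 then held 69.6% ± 0.291 against 29.0% ± 0.0515 for MCM3-203. MCM6-201 held 66.8% ± 0.869 against 32.6% ± 0.306 for MCM6-203.

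MCM4-222 held 68.4% (67.6 to 69.2) of MCM4 in replicate 1 and 75.0% (74.2 to 75.7) in replicate 2, and MCM4-209, a shorter coding model, 19.7% and 11.1%. The counts of MCM4-222 were level, at 9029 and 9070, and those of MCM4-209 were 2597 and 1348. Divided by length, MCM4-222 held 45.1% ± 4.33 and MCM4-209 19.7% ± 7.14. The start of MCM4 lies 7 bases from that of PRKDC, the catalytic subunit of the DNA-dependent protein kinase, on the opposite strand. PRKDC held 41129 ± 3127 normalised counts and a length-scaled level of 137 ± 2.52, below the 181 ± 14.4 of MCM4, and the start of MCM2 lies 143 bases from that of TPRA1, with a level of 13.5 ± 0.796. An unnamed lncRNA on the opposite strand that overlaps 2331 bases of MCM2 held 50.1 ± 4.59 normalised counts, against 9507 ± 541 for MCM2.

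The loading factors had 1 leading coding transcript each. CDT1-201 held 82.0% and 81.0% of CDT1, CDT1-203 9.36% and 11.7%, and the retained-intron model CDT1-202 8.66% and 7.27%. CDC6-207 held 84.3% and 78.3% of CDC6, against 9.49% and 12.6% for the canonical CDC6-201, which has the same coding sequence of 1680 bases and is 4564 bases long against 1948. Divided by length, CDT1-201 held 51.1% ± 1.59, CDT1-203 30.8% ± 4.23 and CDT1-202 18.1% ± 2.65 of CDT1. CDC6-207 then held 72.6% ± 7.14 of CDC6 and CDC6-201 4.20% ± 0.655. The rise of CDT1 between the libraries was shared by its transcripts, with 1.40-fold for CDT1-201, 1.77-fold for CDT1-203 and 1.19-fold for CDT1-202. By mean share, 5 of 10 genes were led by their Ensembl canonical transcript, the others being MCM3, MCM5, MCM7, CDC6 and CDC45. The share over all genes was not taken, so this count cannot be set against a background. MCM3-205, the canonical transcript of MCM3, was listed at 0 in both libraries, and in another version than in GENCODE v44.

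The remaining genes of the pathway were taken from lists by role, with levels on the length-scaled unit. Genes are called expressed here at a level of 1 or more in both libraries. In the background 11985 of 19885 protein-coding genes reached it, and the lists are short. All 6 subunits of the origin recognition complex, which marks origins for loading, reached a level of 1 in both libraries, from ORC5 at 14.5 ± 1.11 to ORC6 at 47.9 ± 4.36 (SD, n = 2). The mean of ORC6 lay between the MCM6 values of 39.3 and 49.3, and below both values of MCM5. Of the genes that control CDT1 by ubiquitin-dependent turnover, 5 of 5 were expressed, from CUL4B at 28.1 ± 3.34 to DDB1 at 123 ± 10.8.

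Among the factors that activate the loaded ring, including the GINS subunits, 10 of 10 reached a level of 1, from MTBP at 4.38 ± 0.299 to DONSON at 39.2 ± 3.78. The kinases and cyclins that trigger activation ranged over 7 of 7 genes from CCNE2 at 6.35 ± 0.269 to CDK2 at 48.5 ± 0.425. All 8 E2F genes were expressed, from E2F8 at 4.15 ± 0.285 to E2F1 at 29.4 ± 3.52, and on this unit the mean of each was below that of CDC6. Per canonical length CDC6 had a mean of 13.6 ± 0.917, below E2F1 at 32.9 ± 3.75, E2F4 at 27.6 ± 2.97 and E2F5 at 15.6 ± 4.26. The means of the remaining E2F genes stayed below that of CDC6 there. The next values are again length-scaled. In replicate 2, E2F1 at 31.9 was level with CDC6 at 31.4.

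Relatives of the 10 genes were lower on the length-scaled unit. Of the other MCM family genes, 3 of 4 reached a level of 1, from MCMDC2 at 0.165 ± 0.0259 to the MCM-binding protein gene MCMBP at 28.0 ± 2.30. Per canonical length, however, MCMBP at 30.6 ± 2.76 exceeded CDC6 at 13.6 ± 0.917. Of the relatives of geminin that act in multiciliated cells, MCIDAS stood at 1.58 ± 0.0275 and GMNC at 0.0109 ± 0.000873, against 43.4 ± 8.93 for GMNN. The proteins of the moving fork were expressed for 12 of 12 genes, from the checkpoint mediator CLSPN at 10.7 ± 1.53 to the sliding clamp PCNA at 203 ± 43.6, the one gene of these lists with a mean above that of MCM4. PCNA exceeded MCM4 in both libraries, with 234 and 172, but by less than the sum of their SDs.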

How the data were processed

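The 2 deposited tables of all transcripts, 1 per HEK293 library, were used. TruSeq libraries of rRNA-depleted total RNA were made per the labels. The submitters' processing notes name FastQC, STAR 2.7.0d, RSEM 1.3.3 and R 3.6.3, and the study names GRCh38 and Ensembl release 104. No strand setting is stated in the sources used here. The deposited expected counts are estimated counts per transcript, made by the authors with RSEM and not divided by length. The other deposited signal, the EB-Seq-Normalised column, is that count divided by a size factor, 0.945 for replicate 1 and 1.08 for replicate 2. The 2 METTL8 tables were not used, and 0 value columns belonged to no sample.

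Transcripts were joined to GENCODE v44 by identifier, leaving out the version, which placed 202217 of 206696 (96.9% and 96.8% of the counts). Of the 91 transcripts, 73 had the same version there, and 10 of the 25 named by share had another, so lengths and exons may differ from the models counted. Length-scaled levels are estimated counts divided by GENCODE length, without an effective length correction, per 1000000. Values are means ± SD over 2 libraries, and with 1 group no test was run. The calls of leading transcripts and of 2-fold differences were tried on simulated counts that held counting error only. The simulation did not divide reads between overlapping models, so it does not bear on errors of that kind. The text names the 10 genes, their transcripts whose mean share was 5% or more, the highest and the lowest gene of each list, and genes that overlap one of the 10 or start within 1000 bases. The marker genes VIM, PAX8, NEFM, PAX2, HBB, ALB and PTPRC were named after their values were seen. The members and lists were chosen with earlier results of these data known. Alternatives covered lengths, transcript classes, filters, scaling and each library alone. Python 3.11.15, pandas 2.3.3, numpy 2.4.6, scipy 1.17.1 and matplotlib 3.10.9 were used. A sequence comparison of MCM5 transcripts is not reported here.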

Additional observations from a re-analysis of the deposited data

How the results depend on the processing

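Of 40 alternatives other than leaving out a library, 21 stayed within the spread of the reported value (1 SD over the libraries, or 1.5 times for counts), 19 moved further and 0 reversed. Only the log2 ratios of CDT1 to GMNN, and of CDC6 and CDC45 to the subunit mean, could be labelled reversed, by a change of sign. Changes of rank, such as those of MCM7 among the subunits and of CDC6 against CDC45, were not counted. That spread is wide for the ratio of CDT1 to GMNN, 2.10 as reported, which was 1.504 per canonical length and 3.17 without division by length. The mean level of MCM2 to MCM7, 128 as reported, was 113 per canonical length, 68.7 with 200 bases taken off each length, 247 with coding transcripts only and 274 when scaled without misc_RNA, ribozyme, snRNA, rRNA and mitochondrial transcripts. The span of the subunits, 4.08-fold as reported, was 5.67-fold per canonical length and 6.58-fold with coding transcripts only. The log2 ratio of CDC6 to the subunit mean, -2.01 as reported, was -2.55 without division by length, -3.06 per canonical length, -1.94 with 200 bases taken off and -1.46 with coding transcripts only. The log2 ratio of CDC45 to the subunit mean, -1.54 as reported, was -2.40, -1.63, -1.44 and -1.48 under these 4 in the same order. The median leading share, 76.5% as reported, was 52.8% per length, 85.5% among coding transcripts, and 75.2% to 76.6% with 1 library left out. The median protein-coding share, 91.5% as reported, was 75.3% per length and 92.3% with decay models counted as coding. Among transcripts that averaged 100 or more normalised counts, 4 of 32 differed by over 2-fold, against 15.3% of all such transcripts. The leading transcript was the same for 7 of 9 genes with coding transcripts only, since MCM6 has a single listed coding transcript. No paired analysis was possible because there is only 1 group. The depth limits transcripts at 0, where up to 3 counts remain possible, and short words that separate models limit shares within a gene.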
